A study of Mus musculus with 6 samples.

Results

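The genes described here are 34 developmental transcription factors that lie outside the Hox clusters and are known as Polycomb-bound genes in embryonic stem cells. They were listed by name, with earlier results of these arrays known, and Polycomb binding itself was not measured here. Of the 34 genes, 33 had a probe set annotated to exactly 1 symbol, out of 18194 genes measured that way, and Pax2 was not analysed here. The 33 genes fall into the Gata, Pax, Nkx, Fox, LIM homeobox, T-box, Msx, Dlx, basic helix-loop-helix (bHLH), sine oculis homeobox (Six2 and Six3), Cdx and Evx, and Meis families. Of the 33, 6 had a mean signal at or above the level under which 40% of all genes lie (an intensity of 106), and 27 were under it. That level is called the limit below; it ranks genes by brightness and is not a test of detection.

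Total RNA of mouse embryonic stem cells (129/B6 hybrid background) was hybridised to 6 Affymetrix arrays, and the samples come from 3 clones. Clone 3031 has wild-type Yaf2 (Yaf2wt), and clones 3086 and 3087 are Yaf2 knockdowns (Yaf2kd, given as mutant in the genotype label). Each clone gave 1 array after 0.8 µM 4-hydroxytamoxifen for 24 h (OHT+), which the labels describe as depleting Rybp, and 1 untreated array (OHT-). Cells labelled OHT- are wild type for Rybp in all 3 clones, so the groups are Yaf2wt OHT- (control, 1 array), Yaf2wt OHT+ (Rybp-depleted, 1 array), Yaf2kd OHT- (2 arrays) and Yaf2kd OHT+ (Yaf2 knockdown with OHT, labelled Rybp-depleted, 2 arrays). Since Yaf2wt is a single clone, Yaf2 status and clone cannot be told apart. Cells that received OHT without a Rybp allele to lose were not analysed here, so OHT and the loss of Rybp cannot be told apart. Cultures were kept with ESGRO on irradiated fibroblast feeders or on gelatin; the surface used for a given sample is not stated in the labels.

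Rybp and Yaf2 signals served to check the labels. A probe set that the annotation gives to Rybp together with a pseudogene, Rybp-ps, lay between 53.9 and 102 on the OHT+ arrays and between 1785 and 2262 on the OHT- arrays, whereas another with the same annotation lay between 2796 and 3443 with OHT and between 180 and 336 without it. These 2 probe sets go in opposite directions, so they do not settle the level of Rybp RNA, and "Rybp-depleted" is used here as the labels have it. The brightest Yaf2 probe set lay between 238 and 297 in Yaf2kd and between 769 and 816 in Yaf2wt. All 12 pluripotency markers examined were at or above the limit on every array. Values of single genes are intensities from 1 probe set, so levels are not compared between genes.

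Polycomb repressive complexes are chromatin regulators that hold developmental genes at low expression: one complex ubiquitinates histone H2A and another methylates lysine 27 of histone H3. Rybp and Yaf2 are related subunits that occupy the same position in variant forms of the first complex and stimulate its ubiquitin ligase. In embryonic stem cells, genes for lineage-specifying transcription factors typically carry these marks at CpG-rich promoters and are expressed only once the corresponding tissue forms.

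The promoters of the members were compared with all promoters by sequence alone, and no Polycomb mark was measured at them. RefSeq promoter windows on GRCm38.p6, from 250 bases before to 50 bases after the start, were matched for 26 of the 34 members (33 windows, Pax2 included). Their median GC content was 62.3%, against 52.7% over 32851 windows of 27025 genes, and their median number of CG dinucleotides was 23 against 7. The median ratio of observed to expected CG was 0.789 against 0.384, and 23 windows (69.7%) had at least 50% GC and a ratio of at least 0.6, against 33.5% of all windows. Shown are the bases before the start for 4 of the members above the limit, Pax6 (both starts), Meis2, Olig2 and Msx2. The windows of Gata2, also above the limit, are not shown. Capitals mark CG. The windows are chr2:105668646-105668895 and chr2:105682213-105682462 for Pax6 (both on the + strand), chr2:116064620-116064869 for Meis2 (- strand), chr16:91225300-91225549 for Olig2 (+ strand) and chr13:53472781-53473030 for Msx2 (- strand).
Pax6, first start: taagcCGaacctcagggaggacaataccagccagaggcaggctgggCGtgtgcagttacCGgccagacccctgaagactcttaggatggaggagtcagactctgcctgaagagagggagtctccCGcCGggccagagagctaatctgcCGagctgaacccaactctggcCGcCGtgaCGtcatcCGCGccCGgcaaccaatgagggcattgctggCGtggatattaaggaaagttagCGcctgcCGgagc
Pax6, second start: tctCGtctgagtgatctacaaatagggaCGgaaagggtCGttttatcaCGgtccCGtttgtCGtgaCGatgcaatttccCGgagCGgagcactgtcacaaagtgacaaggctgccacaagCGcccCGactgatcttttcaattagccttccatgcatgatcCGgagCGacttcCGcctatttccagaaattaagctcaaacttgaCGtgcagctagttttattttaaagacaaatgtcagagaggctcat
Meis2: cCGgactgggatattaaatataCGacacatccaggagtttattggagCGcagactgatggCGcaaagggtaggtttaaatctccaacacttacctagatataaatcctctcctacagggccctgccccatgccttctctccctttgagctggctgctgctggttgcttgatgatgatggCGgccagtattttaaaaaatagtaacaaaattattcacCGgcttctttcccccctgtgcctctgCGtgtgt
Olig2: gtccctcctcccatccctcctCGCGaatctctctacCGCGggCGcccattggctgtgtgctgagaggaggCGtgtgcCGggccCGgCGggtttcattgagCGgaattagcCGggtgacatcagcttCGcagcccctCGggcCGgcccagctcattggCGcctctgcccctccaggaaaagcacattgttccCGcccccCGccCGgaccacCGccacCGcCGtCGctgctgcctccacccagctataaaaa
Msx2: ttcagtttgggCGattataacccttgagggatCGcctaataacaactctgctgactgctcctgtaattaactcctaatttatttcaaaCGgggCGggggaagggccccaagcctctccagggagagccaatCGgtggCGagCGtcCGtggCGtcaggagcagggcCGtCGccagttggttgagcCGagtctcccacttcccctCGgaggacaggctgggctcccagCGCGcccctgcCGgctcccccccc
These 250 bases hold 15 CG dinucleotides at each Pax6 start, 7 at Meis2, 22 at Olig2 and 16 at Msx2. Across the 33 windows of 300 bases, the E-box CACGTG was found on either strand in 2 windows (6.06%, against 7.15% of all windows), the E2F-type word GCGGGAA in 2 (6.06%, against 4.60%) and GAGAG in 27 (81.8%, against 62.0%). Each word was searched on its own, so matches of different words may share bases.

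**Figure D1:**
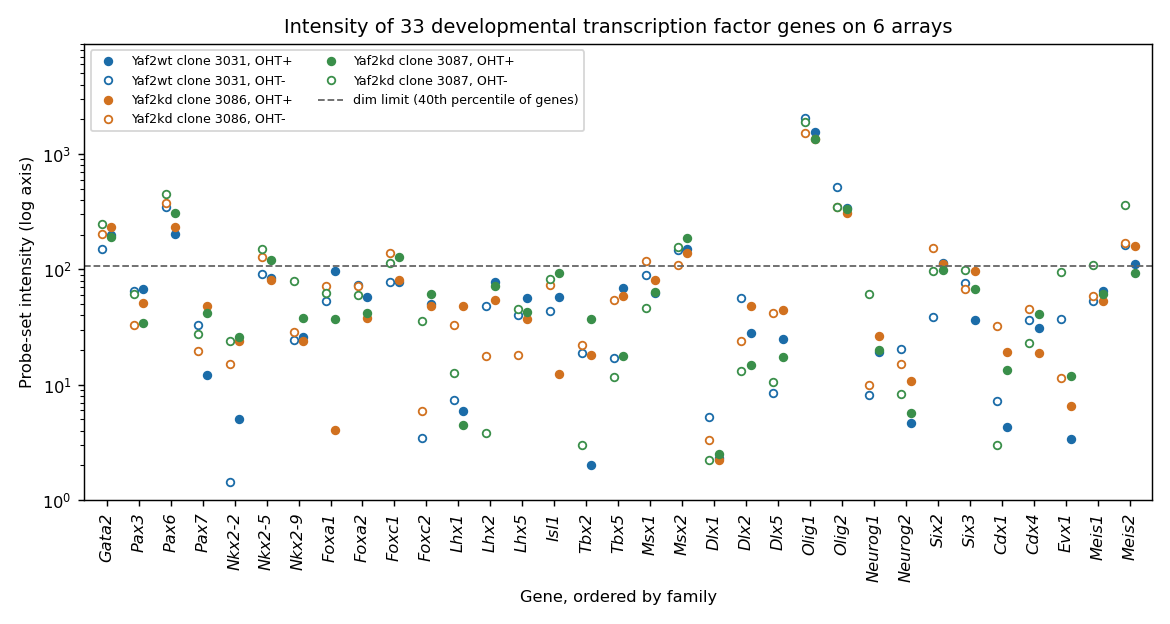
Intensity (y axis, log axis) of the brightest probe set of each of the 33 measured members (x axis, grouped by family) on each of the 6 arrays; colour gives the clone, filled and open points give OHT+ and OHT-, and the dashed line is the limit at an intensity of 106. Olig1, Olig2, Pax6, Gata2 and Msx2 lie above the line on every array, Meis2 is under it on 1 array, and most other members lie under it.

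The 6 members at or above the limit belong to the Gata, Pax, Msx, bHLH and Meis families, and no member of the Nkx, Fox, LIM homeobox, T-box, Dlx, sine oculis or Cdx and Evx families was among them. Olig1, Olig2, Pax6, Gata2 and Msx2 were above the limit on 6 of 6 arrays and Meis2 on 5 of 6. Nearest to the limit were Msx2 on its upper side, with a geometric mean of 146, and Nkx2-5 (105.7), Foxc1 (99.5) and Six2 (94.1) just under it. Each of the last 3 was above the limit on 3 of 6 arrays. Far under it were, for example, Dlx1, a forebrain interneuron factor, at 2.21 to 5.26, and Neurog2, a proneural factor, at 4.69 to 20.6.

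With OHT, no member passed the limma test over all genes at an adjusted p of 0.05 (0 of 33), and no other gene did (0%). At an unadjusted p under 0.05 there were 3 members, Pax6, Foxa2 and Foxc2 (9.09%), against 8.41% of all genes. Of the 33 members, 14 had a higher and 19 a lower mean log2 intensity with OHT, and the median log2 difference was -0.20 against -0.0035 over all genes. Among the 6 members above the limit, 2 were higher and 4 lower, with a median of -0.31 against -0.0082 over the 10916 genes above the limit. The 4 lower ones, Pax6, Meis2, Olig1 and Olig2, were lower in all 3 clones (20.4% of genes above the limit were), and in 3 of them, Pax6, Meis2 and Olig2, every OHT+ array was under every OHT- array (8.24% of genes above the limit). In whole cultures, fewer cells that express a gene and less RNA per cell cannot be told apart.

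Pax6, a paired-box factor of eye, forebrain and pancreas, was at 203, 233 and 305 on the OHT+ arrays of clones 3031, 3086 and 3087, and at 349, 376 and 452 on their OHT- arrays. Each clone was lower with OHT, by 0.78, 0.69 and 0.57 on the log2 scale, and the arrays of the 2 conditions did not overlap. The mean was 247 ± 52.6 (SD, n = 3) with OHT and 392 ± 53.4 (SD, n = 3) without it, and the geometric mean was 1.60-fold lower. The limma difference was -0.68 ± 0.17 (log2, SE; 95% interval -1.13 to -0.23), with an adjusted p of 0.483 over all genes. With the dimmest 40% of genes left out, where limma called 38 of 10916 genes (0.348%), the adjusted p of Pax6 was 0.131 and none of the 6 members passed. With an intensity trend in the variance, limma called 60 genes (0.33%) and 0 of the 33 members, and the adjusted p of Pax6 was 0.200.

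Pax6 has 5 probe sets of its own. The next brightest was at 98.5, 152 and 143 with OHT and at 165, 189 and 215 without it, in the same clone order. In all, 4 of the 5 were lower with OHT in all 3 clones. Of these 4, those with geometric means of 54.6 and 13.3 were under the limit, and the former had log2 differences of only -0.22, -0.14 and -0.029. The fifth, with a geometric mean of 40.7 and so also under the limit, was lower in clone 3031 (-0.21) and higher in clones 3086 (0.45) and 3087 (0.36). The genes next to Pax6 in the RefSeq order, Rcn1 and Elp4, had log2 differences of 0.10 and -0.024.

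Meis2, a TALE homeobox partner of Hox and Pbx proteins, was at 112, 160 and 92.3 with OHT and at 163, 169 and 359 without it. Clone 3087 spanned the widest range, with a log2 difference of -1.96, against -0.54 in clone 3031 and -0.079 in clone 3086. The limma difference was -0.86 ± 0.40 (log2, SE; adjusted p = 0.647), and it was -0.31 with clone 3087 left out. All 4 Meis2 probe sets were lower with OHT in all 3 clones, though those with geometric means of 52.2 and 44.9 were under the limit. The next brightest of Meis2 was at 92.6, 73.5 and 64.7 with OHT and at 127, 171 and 213 without it. Its relative Meis1 was under the limit, at 53.0 to 109.5, and its 3 probe sets had lower means with OHT, of which 2 were lower in all 3 clones. Of the genes next to Meis2, BC052040 had a difference of -0.14, and Tmco5, which is under the limit, was lower in all 3 clones, by 0.80, 0.81 and 0.94 (log2).

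Olig1 and Olig2 encode bHLH factors of the oligodendrocyte and motor neuron lineages and are next to each other on chromosome 16. Olig1 was at 1556, 1362 and 1363 with OHT and at 2070.2, 1525 and 1891 without it, lower in each clone by 0.41, 0.16 and 0.47 (log2), though the conditions overlapped between clones. Its limma difference was -0.35 ± 0.13 (log2, SE; adjusted p = 0.599). Olig2 was at 341, 311 and 331 with OHT and at 516, 346 and 350.1 without it, and the arrays did not overlap. Most of its difference came from clone 3031 (-0.59, against -0.15 and -0.079 in the Yaf2kd clones): it was -0.28 ± 0.15 over all clones (limma, SE; adjusted p = 0.681) and -0.12 with clone 3031 left out. Ifnar2, the gene on the other side of Olig1, had a difference of -0.16, and 4932438H23Rik, next to Olig2 and under the limit, one of 1.34.

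Gata2, a zinc-finger factor of blood stem and progenitor cells, and Msx2, a homeobox target of BMP signalling, lay on the other side. Gata2 was at 199.7, 231 and 189 with OHT and at 150.3, 202 and 245 without it; it was higher in 2 clones (0.41 and 0.19) and lower in clone 3087 (-0.38). Its limma difference of 0.075 ± 0.19 (log2, SE; adjusted p = 0.928) became -0.093 with clone 3031, or either of its arrays, left out. Msx2 was at 152, 138 and 185 with OHT and at 147, 109 and 157 without it, higher in each clone by 0.047, 0.34 and 0.24. The conditions overlapped, and the limma difference was 0.21 ± 0.22 (log2, SE, adjusted p = 0.829), with a 95% interval of -0.38 to 0.80. The other probe set of Msx2, with a geometric mean of 20.1, was higher in clone 3031 (0.61). It was lower in clones 3086 (-0.0087) and 3087 (-0.35).

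**Figure D2:**
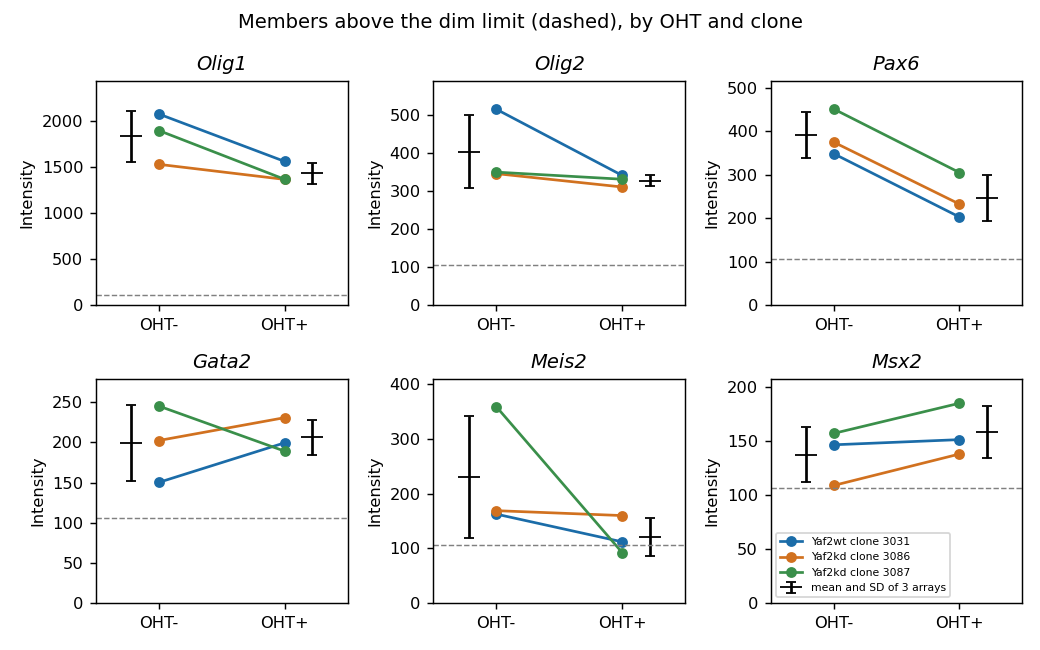
Intensity (y axis, linear, from 0) of the 6 members at or above the limit, without and with OHT (x axis); each line joins the 2 arrays of 1 clone, black bars give the mean and SD of 3 arrays, and the dashed line is the limit of 106. Pax6, Meis2, Olig1 and Olig2 slope down from OHT- to OHT+ in each clone, Msx2 slopes up in each, and Gata2 goes down in clone 3087 only.

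**Figure D3:**
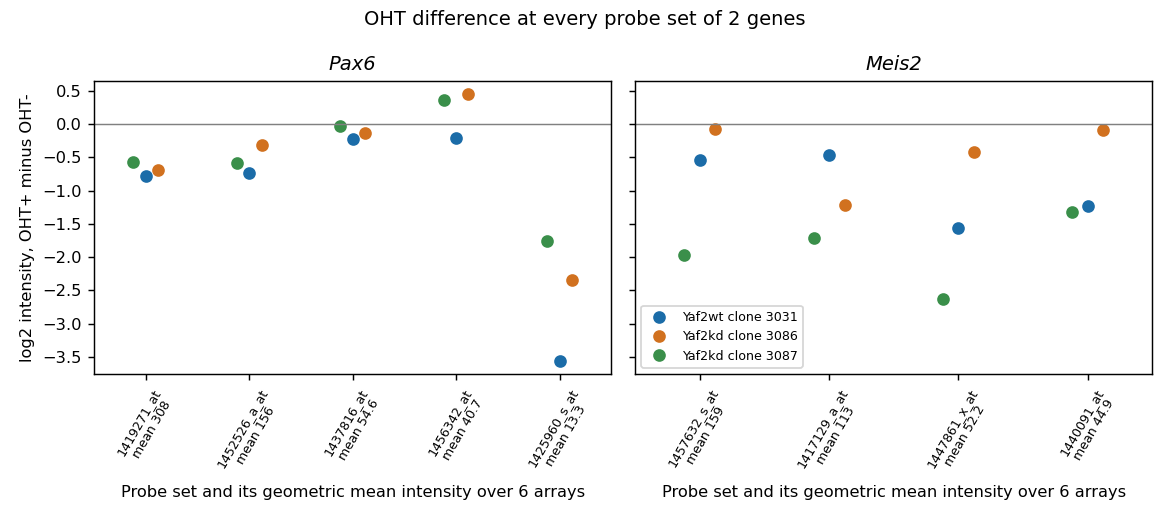
Log2 difference between OHT+ and OHT- (y axis) in each clone for every probe set of Pax6 and Meis2 (x axis, brightest first, with its geometric mean intensity). All 4 probe sets of Meis2 and 4 of the 5 of Pax6 are lower with OHT in all 3 clones.

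The 27 members under the limit varied more between clones than the brighter ones. The median SD over clones of the log2 difference was 0.994 for these members, against 0.221 for the 6 brighter ones, and the same medians over all genes were 0.982 and 0.195. Foxc2, a forkhead factor of mesoderm and lymphatic vessels, was at 50.3, 48.2 and 60.5 with OHT and at 3.42, 5.85 and 35.8 without it. Lhx2, a LIM homeobox factor of forebrain and eye, was at 76.9, 53.9 and 71.7 with OHT and at 47.7, 17.8 and 3.84 without it. In both genes every OHT+ array was above every OHT- array, which held for 2 of 33 members and 7.49% of all genes. Their limma differences were 2.56 ± 0.86 (adjusted p = 0.580) and 2.17 ± 0.81 (log2, SE; adjusted p = 0.593), and adding 50 to each value before the log brought them to 0.70 and 0.72. Without clone 3087 the difference of Lhx2 was 1.14.

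The third largest difference upwards was that of Tbx5, a T-box factor of heart and forelimb, at 69.4, 58.3 and 17.7 with OHT and 17.0, 53.9 and 11.6 without it (0.92 ± 0.87, log2, limma SE; adjusted p = 0.808). Its OHT+ and OHT- arrays overlapped, and the difference was 0.36 without clone 3031. The other, dimmer probe set of Tbx5 was higher in clones 3031 (0.21) and 3087 (1.45) and lower in clone 3086 (-1.28). In all, 6 members were higher in all 3 clones, Foxc2, Lhx2, Tbx5, Nkx2-2, Dlx5 and Msx2 (18.2%, against 16.8% of all genes).

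The largest differences downwards were those of Evx1, Foxa1 and Neurog2. Evx1, a homeobox factor of the primitive streak and spinal cord, was at 3.37, 6.47 and 11.9 with OHT and at 37.2, 11.4 and 95.0 without it (-2.43 ± 0.95, log2, limma SE; adjusted p = 0.603). It was lower in every clone, but the OHT- array of clone 3086 lay among the OHT+ arrays. Foxa1, an endoderm pioneer factor, was at 97.0, 4.07 and 37.1 with OHT and at 53.3, 72.1 and 62.7 without it, so clone 3031 went the other way (limma -1.35 ± 1.16, adjusted p = 0.790) and the difference was 0.053 without clone 3086. Neurog2 was at 4.69, 10.8 and 5.72 with OHT and at 20.6, 15.0 and 8.25 without it (limma -1.05 ± 0.52, adjusted p = 0.664; -0.50 without clone 3031).

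Foxa2, which acts with Foxa1 in endoderm and floor plate and is under the limit, had smaller differences that varied less between clones. It was at 57.6, 37.8 and 41.9 with OHT and at 73.6, 71.5 and 60.5 without it, lower in each clone by 0.35, 0.92 and 0.53 (log2). The arrays did not overlap, as in 4 of 33 members (Pax6, Meis2, Olig2 and Foxa2) and 7.08% of all genes. The limma difference of Foxa2 was -0.60 ± 0.15 (SE, adjusted p = 0.494). With an intensity trend in the variance its SE was 0.40 (limma adjusted p = 0.655). Counting both sides of the limit, 8 members were lower in all 3 clones: Pax6, Meis2, Olig1, Olig2, Foxa2, Evx1, Neurog2 and Nkx2-5 (24.2%, against 17.6% of all genes).

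**Figure D4:**
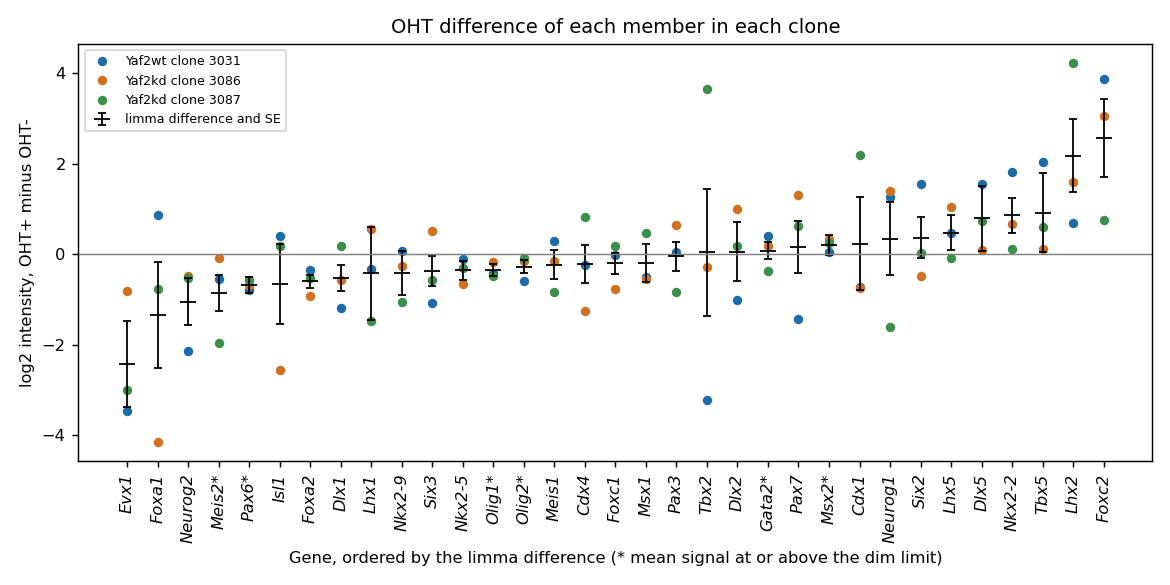
Log2 difference between OHT+ and OHT- (y axis) of each member (x axis, ordered by the limma difference), as 1 point per clone with the limma difference and its SE in black; an asterisk marks the members at or above the limit. The clones of Tbx2 range from -3.23 to 3.65, while those of the marked members Pax6, Olig1, Olig2 and Msx2 and of the unmarked Foxa2 and Nkx2-5 lie close together.

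The remaining members under the limit spanned wide ranges over the 6 arrays. Among neural factors, Neurog1, a proneural gene of sensory neurons, was at 8.07 to 61.5 (OHT difference 0.35, log2), Isl1 of motor neurons and heart at 12.5 to 92.6 (-0.66) and Lhx5 of the forebrain at 17.9 to 56.0 (0.48). Isl1 was far lower on 1 array, the OHT+ array of clone 3086, and its difference was 0.29 without that clone. Its second, dimmer probe set (geometric mean 25.7) was lower with OHT in all 3 clones, by 1.43, 0.63 and 1.07 (log2). Among mesoderm and skeletal factors, Msx1 was at 45.9 to 118 (-0.20), Foxc1 at 77.4 to 138 (-0.20) and Dlx5 at 8.53 to 44.7 (0.79). Cdx1 and Cdx4, regulators of the posterior axis, were at 2.98 to 32.2 (0.24) and 19.0 to 44.9 (-0.22). In 7 of these 8 genes at least 1 clone went against the others; in Dlx5 all 3 were higher with OHT, and its difference was 0.40 without clone 3031. That of Lhx5 was 0.20 without clone 3086.

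By family, the OHT differences did not line up on 1 side. In the Pax family, Pax3 (-0.048) and Pax7 (0.16) of muscle and neural crest differed less than Pax6, and clones disagreed in sign in both. In the Nkx family, Nkx2-2 of the ventral neural tube had a positive difference (0.86, and 0.39 without clone 3031), and the cardiac factor Nkx2-5 (-0.36) and Nkx2-9 (-0.42, and -0.095 without clone 3087) negative ones. The Six2 and Six3 genes, kidney and forebrain factors that neighbour each other, differed by 0.36 and -0.38 (-0.23 and -0.030 without clone 3031), and the neighbouring Dlx1 and Dlx2 by -0.53 and 0.059 (-0.19 and 0.59 without clone 3031). T-box and Meis were the families with several measured members all on 1 side: Tbx2 (0.044) and Tbx5 higher, Meis1 (-0.23) and Meis2 lower, with the 3 clones of Tbx2 ranging from -3.23 to 3.65. Of 14 members with several probe sets, 8 had all of them on 1 side of 0 by the mean OHT difference and 6 had them on both sides.

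Between Yaf2kd and Yaf2wt arrays, again no member and no other gene passed the limma test (0 of 33; 0%), and 1 member, Nkx2-2, had an unadjusted p under 0.05, against 7.25% of all genes. Of the 33 members, 19 were higher and 14 lower in Yaf2kd, and the median log2 difference was 0.32 against 0.035 over all genes. The 6 members above the limit were split evenly, with Meis2 (0.36), Gata2 (0.32) and Pax6 (0.32) higher and Olig2 (-0.33), Olig1 (-0.24) and Msx2 (-0.043) lower. All 6 had Yaf2kd arrays that overlapped the Yaf2wt arrays, and their adjusted p-values (limma) were 0.692 or higher. Without the Yaf2wt OHT- array the differences of Meis2, Gata2 and Olig2 were 0.12, 0.066 and -0.089.

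Nkx2-2 was at 5.04 and 1.43 on the Yaf2wt arrays, with and without OHT. In Yaf2kd it was at 23.9 and 15.2 in clone 3086 and at 26.0 and 24.1 in clone 3087, in the same order, so the 4 Yaf2kd arrays lay above both Yaf2wt arrays, yet far under the limit. The limma difference was 3.02 ± 0.41 (log2, SE; adjusted p = 0.549), and 0.44 after adding 50 to each value before the log. Besides Nkx2-2, only Foxc1 among the members had all Yaf2kd arrays (80.8 to 138) above both Yaf2wt arrays (77.4 and 78.0), that is 2 of 33 members against 11% of all genes. At the other, dimmer probe set of Foxc1 the arrays overlapped (14.8 to 49.4 in Yaf2kd, 19.5 and 39.2 in Yaf2wt). Its Yaf2 difference was -0.21 (log2). Pax3 was the member with all Yaf2kd arrays (33.1 to 61.7) under both Yaf2wt arrays (64.7 and 67.4), 1 of 33 against 7.5% of all genes. The other probe sets of Pax3, with geometric means of 14.4 and 8.22, also had all Yaf2kd arrays under both Yaf2wt arrays.

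The next largest differences in Yaf2kd were those of Lhx1 and Tbx2 upwards and Lhx2, Foxa1 and Dlx2 downwards, and in each of the 5 the Yaf2kd and Yaf2wt arrays overlapped. Lhx1, a factor of the gastrula organiser and kidney, was at 5.88 and 7.38 in Yaf2wt (with and without OHT), 48.2 and 32.9 in clone 3086, and 4.49 and 12.6 in clone 3087 (limma 1.39 ± 1.09, adjusted p = 0.758). Its 2 Yaf2kd clones thus stood apart from each other, and without the OHT+ array of clone 3086 its difference was 0.67. The other probe set of Lhx1, with a geometric mean of 3.23, went the other way, with a Yaf2 difference of -1.82 (log2). Tbx2 (1.24 ± 1.49, adjusted p = 0.831) was at 2.00 and 18.7 in Yaf2wt, and at 18.0, 21.9, 37.3 and 2.97 in Yaf2kd; without the Yaf2wt OHT+ array its difference was -1.21.

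The limma differences downwards were -1.42 ± 0.86 for Lhx2 (adjusted p = 0.715), -1.32 ± 1.24 for Foxa1 (adjusted p = 0.790) and -0.87 ± 0.69 for Dlx2 (adjusted p = 0.761). Dlx2, an interneuron factor, was at 28.1 and 56.4 in Yaf2wt and between 13.2 and 48.2 in Yaf2kd. Foxa1 was at 97.0 on the Yaf2wt OHT+ array, and without that array its difference was 0.33. It was also far lower on the OHT+ array of clone 3086 (4.07) than on the other Yaf2kd arrays (37.1 to 72.1). Without the Yaf2wt OHT- array the differences of Lhx2 and Dlx2 were -0.31 and -0.069.

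Fibroblast markers differed with the clones too. Their summed intensity was 10338 and 11157 on the Yaf2wt arrays and 14089 to 16173 on the Yaf2kd arrays. Vim, Acta2 and Tagln, the brightest of the list at 2307 to 5705 over the arrays, weighed most in these sums. Of the 16 measured, 12 were higher and 4 lower in Yaf2kd (median 0.33, log2), and 4 (25%) had an unadjusted p under 0.05, against 7.25% of all genes. The 9 of them above the limit were all higher in Yaf2kd. Of the 7 under it, 3 were higher and 4 lower, the lower ones being Prrx1 (-0.69), Pdgfra (-0.68), Dcn (-0.19) and Twist2 (-0.094). Neural progenitor sums overlapped between the clones, at 1740 and 2164 in Yaf2wt and 1500 to 2658 in Yaf2kd. The part of other cells in the members' Yaf2 differences was not tested.

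**Figure D5:**
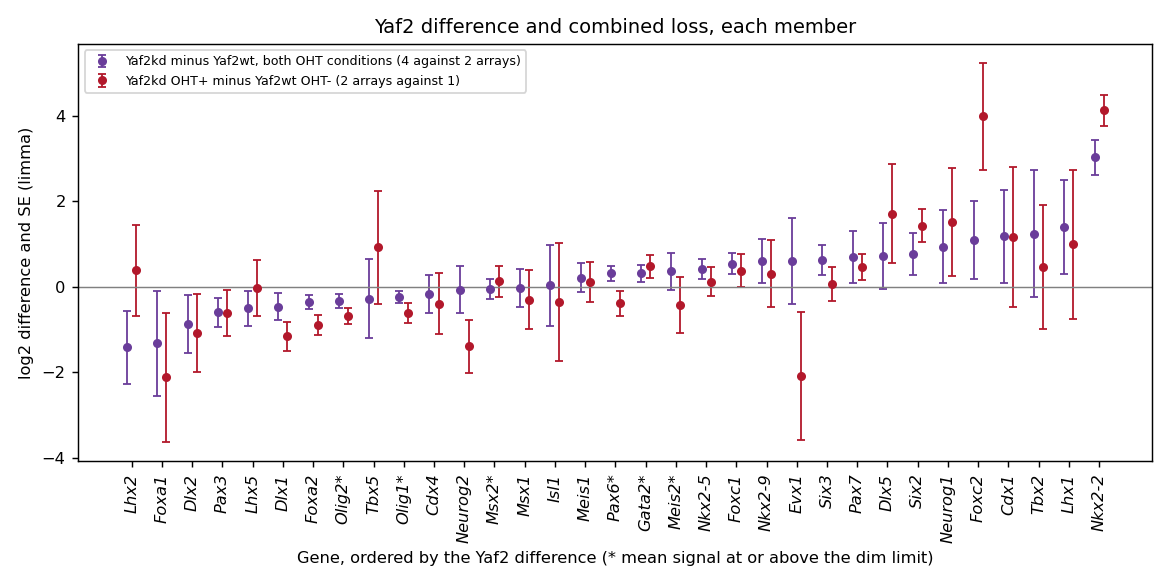
Limma log2 difference with its SE (y axis) of each member (x axis, ordered by the Yaf2 difference), for Yaf2kd against Yaf2wt over both OHT conditions (purple) and for Yaf2kd OHT+ against Yaf2wt OHT- (red); an asterisk marks the members at or above the limit. Nkx2-2 stands farthest from 0 in both, at 3.02 and 4.12 (0.44 and 0.54 on log2(value + 50), not plotted), and the marked members lie between -0.68 and 0.48 in both.

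For the combined comparison, Yaf2kd OHT+ (2 arrays) was set against the single Yaf2wt OHT- array, which also serves in the OHT and Yaf2 comparisons. No member and no other gene passed limma's test (0 of 33; 0%). At an unadjusted p under 0.05 there were 6 members, Nkx2-2, Foxc2 and Six2 higher and Olig2, Foxa2 and Dlx1 lower (18.2%, against 6.99% of all genes). Of these, 5 are among the 27 members under the limit, where 12.7% of genes had such a p, and 1 is among the 6 above it, where 3.16% did. With an intensity trend in the variance, the SE in this comparison went from 0.23 to 0.63 for Foxa2 and from 0.34 to 1.66 for Dlx1. Of the 33 members 18 were higher and 15 lower, with a median of 0.11 against 0.025 over all genes. Of the 6 members with an unadjusted p under 0.05, Olig2 was above the limit. It was at 311 and 331 on the Yaf2kd OHT+ arrays against 516 on the control (-0.68 ± 0.19, log2, limma SE). Olig1 was at 1362 and 1363 against 2070.2 (-0.60 ± 0.24; limma adjusted p = 0.787), and Pax6 was at 233 and 305 against 349 (-0.39 ± 0.29; limma adjusted p = 0.898).

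Among dim members, Nkx2-2 was at 23.9 and 26.0 against 1.43 (4.12 ± 0.37, log2, limma SE; adjusted p = 0.291) and Foxc2 at 48.2 and 60.5 against 3.42 (3.98 ± 1.25; limma adjusted p = 0.695). On log2(value + 50) these differences were 0.54 and 0.96. Dlx5, a skeletal and craniofacial factor, was at 44.7 and 17.5 against 8.53 (1.71 ± 1.15; limma adjusted p = 0.889). Downwards, Foxa1 was at 4.07 and 37.1 against 53.3, Evx1 at 6.47 and 11.9 against 37.2, and Neurog2 at 10.8 and 5.72 against 20.6, with log2 differences of -2.12, -2.08 and -1.39. On log2(value + 50) they were -0.59, -0.56 and -0.28, and that of Dlx5 was 0.45. Without the OHT+ array of clone 3086 the difference of Foxa1 was -0.52 and that of Dlx5 1.03. All of these levels are under the limit, and with 1 control array the fit assumes that it varies as the Yaf2kd arrays do.

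Whether the OHT effect differed between Yaf2kd and Yaf2wt was tested as an interaction, and no member or other gene passed limma (0 of 33; 0%). Pax7 and Six2 had an unadjusted p under 0.05, 2 of 33 against 4.58% of all genes. Pax7 was 12.1 with OHT and 32.8 without it in Yaf2wt, but 48.6 and 41.8 with OHT and 19.8 and 27.4 without it in Yaf2kd (difference of the effects 2.39 ± 0.43, log2, limma SE; adjusted p = 0.619). Six2 was 113 with OHT and 38.6 without it in Yaf2wt, and 111 and 97.7 with OHT and 155 and 95.8 without it in Yaf2kd (-1.77 ± 0.54; limma adjusted p = 1.00). With an intensity trend in the variance, the SE of the difference of the effects was 1.21 for Pax7. For Pax6 the difference of the effects was 0.15, with a 95% interval of -1.07 to 1.37, and for Olig2 it was 0.48 (-0.33 to 1.29). The intervals of Pax6 and Olig2 hold differences of either sign.

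The other genes of the same families and their TALE partners, 82 in a list, gave 73 measured genes, 16 of them at or above the limit. With OHT 42 were higher and 31 lower (median 0.075), and 0 passed limma's adjusted test, with 12 at an unadjusted p under 0.05 (16.4%, against 8.41% of all genes). Of these 12, 9 were among the 57 under the limit (15.8%, against 10.2% of all genes under it). The other 3 were among the 16 at or above it (18.75%, against 7.22%). Among the 16, 6 were higher and 10 lower (median -0.13). The largest of these downwards were Pknox2 (-0.53), Pbx4 (-0.52) and Eomes (-0.41), and upwards Tbx4 (0.89), Tbx3 (0.59) and Foxl2 (0.19), none passing the test. Tbx3, a T-box factor of naive embryonic stem cells, was at 2299, 1599.8 and 1340.3 with OHT and at 1599, 780.2 and 1159.8 without it, higher in each clone.

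Other cell types were read through marker lists, on the same arrays. Of 10 neural progenitor markers, Pax6 among them, 9 were measured; 6 had a lower mean with OHT, which are the 6 above the limit, and the other 3, under it, a higher one, and 0 passed limma's test (4, or 44.4%, at an unadjusted p under 0.05, against 8.41% of all genes). Their summed intensity was 1500 to 1881 on the OHT+ arrays and 2164 to 2658 on the OHT- arrays. Without Pax6, which is itself a member, it was 1195 to 1648 against 1815 to 2206. Of the 9, 3 to 4 were under the limit with OHT against 3 without it. The log2 differences of the 6 above the limit ran from -1.14 to -0.17 (median -0.65). Among them were Sox1, Sox3 and Nes, which mark neural plate and neural stem cells, at -1.09, -1.14 and -0.63. Those of the 3 under the limit ran from 0.091 to 1.44 (median 0.51). Of 17 fibroblast markers 16 were measured, 12 higher and 4 lower with OHT, with 4 (25%) at an unadjusted p under 0.05. In clones 3031, 3086 and 3087 their sums were 11157, 16173 and 16042 with OHT and 10338, 15059 and 14089 without it, higher in each clone. Of the 16 markers, 4 to 6 were under the limit with OHT and 8 to 9 without it. The part of other cells in the members' values was not tested.

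Of 37 Polycomb subunit genes 35 were measured, 17 higher and 18 lower with OHT (median -0.022), and none passed limma's test over all genes. An unadjusted p under 0.05 was found for 5 (14.3%), against 8.41% of all genes. With the intensity trend, where limma called 60 genes (0.33% of all), Phc2 and Bcor rose by 0.63 and 0.61 (log2, limma adjusted p = 0.0475 and 0.0488). With trend and filter together both passed again, as did Kdm2b (-0.45; limma adjusted p = 0.0482), and from the marker lists Klf4 (0.90), Dppa3 (0.61) and Nanog (0.42; limma adjusted p = 0.0205, 0.0287 and 0.0212), Krt7 (0.87; limma adjusted p = 0.0447) and Pdgfrb (1.34; limma adjusted p = 0.0482). Pdgfrb also passed with the clone as a block and the filter (limma adjusted p = 0.00892). The numbers of all genes called in these fits are given below with the processing alternatives. Of 12 primitive endoderm markers 8 were higher and 4 lower, and of 11 trophectoderm markers 3 were higher and 8 lower. From either list 0 passed, with 2 and 3 (16.7% and 27.3%) at an unadjusted p under 0.05, against 8.41% of all genes. Of the 12 pluripotency markers 9 had a higher mean with OHT, and the same number were higher in all 3 clones. Of all genes 16.8% were, and of the 10916 genes above the limit 1982. The other markers had a lower mean: Pou5f1 (-0.18), Utf1 (-0.27) and Lin28a (-0.40). Utf1 and Lin28a were lower in all 3 clones, as were 20.4% of genes above the limit. An unadjusted p under 0.05 was found for 5 of the 12 pluripotency markers (41.7%), against 8.41% of all genes, and 0 passed limma's test over all genes. The sums of the pluripotency markers were 115995 to 121394 with OHT and 108598 to 114465 without it.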

How the data were processed

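The authors deposited probe-set intensity values for 6 arrays; Affymetrix Expression Console and RMA appear in the submitters' processing notes, with neither a role nor a version. The deposited intensities run from 0.140 to 45795 and hold the same sorted values on every array, as quantile normalization leaves them, so they were taken as linear and not as the log2 values first assumed. Log2 was taken with no pseudocount. The brightest of a gene's probe sets with 1 symbol (34958 of 45101) by mean log2 stood for the gene.

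Models were fitted to all 18194 genes with limma 3.58.1 (lmFit, eBayes, R 4.3.3) and Benjamini-Hochberg adjustment at 0.05: Yaf2 status plus OHT on all 6 arrays, and the 4 groups for the combined comparison and the interaction. The code was tested on simulated data. Each clone gave 1 OHT+ and 1 OHT- array, which pairs them; within Yaf2kd, deviations of arrays of 1 clone correlated at r = 0.124 over 10916 genes. The fits reported took each array as a unit and did not block by clone, so p-values measure the spread between these arrays. Yaf2wt is a single clone, so no p-value holds a spread between Yaf2wt clones. The clone entered as a block only in alternative fits for OHT and for the interaction. The number of arrays limits the precision. Described in full were members above the limit and the 3 largest differences in each direction of 3 comparisons; Foxc1, Pax3, Pax7, Six2, Foxa2 and other members were added after their values were seen. Members and gene lists were chosen with earlier results of these data known. Planned protein comparisons were not made.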

Additional observations from a re-analysis of the deposited data

How the results depend on the processing

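No member passed the threshold in any comparison under the alternatives run. The number of genes called for OHT, 0 in the fit reported, was 38 with the dimmest 40% left out, 60 with an intensity trend, 18 on log2(value + 50) and 126 with trend and filter together; for the combined comparison it was 4 with the trend. With the clone as a replicate block, the OHT count was 0 over all genes and 64 with the dimmest 40% left out; the block changed no member's call, and the lowest adjusted p of a member was then 0.0668 (Pax6, limma).

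Members with small or variable log2 differences changed sign; the cause was not tested. For OHT, leaving out clone 3031 gave -0.093 for Gata2, -0.11 for Neurog1 and -0.23 for Six2; without clone 3086 the values were -0.41 for Pax7, 0.053 for Foxa1, 0.081 for Foxc1, 0.29 for Isl1, -0.42 for Dlx2, -0.18 for Neurog1 and 0.29 for Cdx4; without clone 3087 they were 0.35 for Pax3, -0.071 for Pax7, 0.11 for Lhx1, -1.76 for Tbx2, -0.74 for Cdx1 and 0.069 for Meis1. The mean of all probe sets gave 0.15 for Pax3, -0.32 for Pax7, 0.26 for Lhx1, 0.12 for Msx1 and 0.20 for Six3, and log2(value + 50) gave 0.0021 for Lhx1, -0.023 for Neurog1 and -0.020 for Cdx1. That mean also turned Lhx1 in the Yaf2 difference (-0.21), Msx2 in the combined comparison (-0.082), and Gata2 (0.26) and Msx2 (-0.27) in the difference of OHT effects.

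With 1 array left out in turn, the OHT difference ranged from -0.88 to 1.08 for Cdx1, -0.54 to 0.094 for Cdx4, -0.58 to 0.59 for Dlx2, -0.36 to 0.012 for Foxc1, -0.093 to 0.20 for Gata2, -1.33 to 0.32 for Isl1, -1.38 to 0.57 for Lhx1, -0.49 to 0.10 for Meis1, -0.63 to 0.15 for Msx1, -0.27 to 1.23 for Neurog1, -0.76 to 0.073 for Nkx2-9, -0.29 to 0.22 for Pax3, -0.21 to 0.95 for Pax7, -0.23 to 0.73 for Six2 and -1.25 to 1.68 for Tbx2. The Yaf2 difference ranged from -2.98 to 0.33 for Foxa1, -0.16 to 0.088 for Msx2 and -1.21 to 3.70 for Tbx2. The combined comparison ranged from -0.087 to 0.34 for Msx2. The difference of OHT effects ranged from -1.03 to 0.065 for Meis2, -0.022 to 0.51 for Msx2, -0.062 to 0.25 for Olig1 and -0.042 to 0.35 for Pax6. Of the 33 members 27 are dim, with a median SD between clones of 0.994 (log2) against 0.221 for the 6 brighter ones.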
